A study of Mus musculus with 28 samples.

Results

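The genes described are those for kinesins, centromere proteins and centrosomal proteins in mouse embryonic stem (ES) cells. They were taken from a microarray table by symbol: Kif followed by a digit, Cenp followed by one letter, or Cep followed by a digit, on probe sets annotated with a single symbol. Where a symbol had several probe sets, the one with the highest mean over the 28 arrays was used. This gave 95 genes of the 19938 symbols on the platform, namely 38 kinesins, 20 centromere proteins and 37 centrosomal proteins. The families were chosen by the measured difference of members between cells with an eGFP vector and untransduced Dicer-null cells in these same arrays. The values of that contrast are therefore given as a description, with no test by gene or by role. Its total count past the threshold stands beside the share of all genes, with the count after centring of arrays. It returns only in a closing caveat on Kif23, and nothing is read from it. Of the 95 genes, 91 lay above the filter on low levels (a mean log2 expression of 6.42) and were tested. The pseudogene Kif4-ps (mean 6.34) and the genes Kif12 (6.40), Kif27 (5.96) and Kif2b (5.78) fell below it, and Kif17 (6.50) and Cep112 (6.57) lay just above.

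Kinesins are motors that walk along or take apart microtubules. Some build and elongate the mitotic spindle, move chromosomes or close the dividing cell, while others carry vesicles, organelles and cilium components. Centromere proteins mark and assemble the site where spindle microtubules attach, and many of them form the constitutive centromere-associated network (CCAN) that sits on chromatin containing the histone Cenpa. Centrosomal proteins build centrioles, the material around them, and primary cilia, and Cep55 acts at the midbody where daughter cells part. ES cells divide rapidly, and messages for mitotic proteins rise and fall with the cell cycle.

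The series compared mouse ES cells with hotspot mutants of DICER1, the ribonuclease that frees microRNAs from their precursors. Dicer-/- cells carried D1709A (4 arrays), D1709N (2), E1705K (3), D1810Y (3) or E1813Q (2) DICER1, wild-type DICER1 (6) or an eGFP vector (3). Untransduced cells were Dicer-/- (called Dicer-null, 3 arrays) or Dicer+/+ (called Dicer wild-type, 2 arrays). All groups but the last thus lack the endogenous Dicer. There were 2 vectors: D1709N, E1813Q and arrays 5 and 6 of wild-type DICER1 used pLD-puro-PGKnvA, and all other transduced cells used pLD-puro-ENvA (PGKnvA and ENvA from here on). The labels name no clone or line beyond the genotype and do not say whether arrays of a group stem from separate cultures. All p-values thus rest on array-to-array spread that may be technical. The deposited values also obey exact linear relations between arrays, so all p-values are approximate. Cells were in log-phase growth in ES medium, per the labels' protocols, and the share of cells in mitosis was not measured: fewer mitotic cells and less RNA per cell cannot be told apart in such bulk samples.

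All 8 ES cell markers were high in all 9 groups, with group means from 9.44 to 13.74 on the log2 scale. Of 7 measured fibroblast or feeder markers, 5 lay above the filter level and all had group means of at most 8.41. Dicer1 itself averaged 8.91 to 9.30 in the mutant groups, 9.31 with wild-type DICER1, 9.39 with eGFP vector, 9.27 in Dicer-null cells and 10.68 in Dicer wild-type cells. Array medians lay between 7.135 and 7.145 in Dicer-null cells and between 7.191 and 7.265 elsewhere. In D1709A and in wild-type DICER1 the fourth array stood apart from arrays 1 to 3. For some members the difference of D1709A from wild-type DICER1 is given below for both sets of arrays. Other results include the fourth array unless stated.

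The first comparison set cells with eGFP vector against untransduced Dicer-null cells, which share the genotype. Of the members, 4 mitotic genes and 1 cilium gene stood 1.41 to 2.22 log2 units higher with the vector. Cenpe, the kinetochore motor that brings chromosomes to the spindle equator, had log2 levels of 10.31, 10.18 and 10.26 with eGFP vector, against 8.19, 8.10 and 8.16 in Dicer-null cells. Cenpf, a large protein of the outer kinetochore, had 10.38, 10.38 and 10.37 with eGFP vector, against 8.44, 8.48 and 8.26 in Dicer-null cells. In both genes every array with vector lay far above every Dicer-null array, by 2.10 ± 0.07 log2 units for Cenpe and 1.98 ± 0.06 for Cenpf (standard error, SE), or 4.28-fold and 3.95-fold.

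Kif20b, a motor of the central spindle and midbody, had 10.07, 10.04 and 9.98 with eGFP vector, against 7.92, 7.97 and 7.87 in Dicer-null cells (4.33-fold). Kif18a, which limits the length of microtubules at kinetochores, had 9.86, 9.78 and 9.77 with eGFP vector, against 8.44, 8.38 and 8.34 in Dicer-null cells (2.67-fold). Cep290, a gatekeeper of the primary cilium, had 7.61, 7.34 and 7.67 with eGFP vector, against 5.33, 5.45 and 5.18 in Dicer-null cells. The Dicer-null values of Cep290 lay below the filter level, so its difference of 2.22 ± 0.12 log2 units is less certain in size. Ordered by log2 change over all 13954 genes tested, Cep290 stood at place 3, Kif20b at 6, Cenpe at 7, Cenpf at 10 and Kif18a at 49. Since this contrast chose the families, these places are no evidence about them.

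The promoter windows of these genes, the members with the largest differences in this contrast, are shown to let their starts be compared. Each window holds 250 bases before and 50 bases after the first annotated start in RefSeq (GRCm38.p6), read in the direction of the gene. Capitals mark matches on either strand to TTTGAA, the core of the cell-cycle homology region (CHR), and to CCAAT, the CCAAT box, both known from promoters of mitotic genes.
Cenpf (chr1:189688037-189688336, minus strand): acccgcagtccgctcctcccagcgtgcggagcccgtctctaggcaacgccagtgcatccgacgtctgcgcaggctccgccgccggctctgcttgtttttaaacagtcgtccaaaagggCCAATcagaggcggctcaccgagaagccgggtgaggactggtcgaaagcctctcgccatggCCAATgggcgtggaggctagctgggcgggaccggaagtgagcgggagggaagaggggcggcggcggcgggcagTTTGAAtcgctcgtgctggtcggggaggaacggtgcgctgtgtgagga
Cenpe (chr3:135212313-135212612, plus strand): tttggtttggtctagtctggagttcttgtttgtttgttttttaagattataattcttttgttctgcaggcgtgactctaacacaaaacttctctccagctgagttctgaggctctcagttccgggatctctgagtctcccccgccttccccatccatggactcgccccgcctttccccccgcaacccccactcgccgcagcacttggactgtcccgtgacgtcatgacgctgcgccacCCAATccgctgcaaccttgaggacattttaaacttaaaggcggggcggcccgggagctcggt
Kif20b (chr19:34922108-34922407, plus strand): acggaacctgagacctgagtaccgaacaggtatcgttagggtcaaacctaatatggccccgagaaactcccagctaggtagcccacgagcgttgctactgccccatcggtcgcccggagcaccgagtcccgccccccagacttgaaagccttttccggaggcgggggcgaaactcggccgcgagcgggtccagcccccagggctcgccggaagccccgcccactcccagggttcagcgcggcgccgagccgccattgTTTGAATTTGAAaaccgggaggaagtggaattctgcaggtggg
Kif18a (chr2:109280488-109280787, plus strand): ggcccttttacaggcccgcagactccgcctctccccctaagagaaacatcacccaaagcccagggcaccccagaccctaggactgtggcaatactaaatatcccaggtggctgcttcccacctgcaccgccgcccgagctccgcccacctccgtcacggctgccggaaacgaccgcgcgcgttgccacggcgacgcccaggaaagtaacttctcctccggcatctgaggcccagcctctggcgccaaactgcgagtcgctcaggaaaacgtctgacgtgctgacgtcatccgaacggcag
Cep290 (chr10:100487332-100487631, plus strand): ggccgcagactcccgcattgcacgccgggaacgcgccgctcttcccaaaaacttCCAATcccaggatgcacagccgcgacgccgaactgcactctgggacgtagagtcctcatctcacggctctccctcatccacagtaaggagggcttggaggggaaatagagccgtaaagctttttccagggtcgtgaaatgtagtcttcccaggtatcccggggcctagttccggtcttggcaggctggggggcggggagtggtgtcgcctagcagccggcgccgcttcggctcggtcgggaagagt

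Cenpf held both motifs, Cenpe and Cep290 held a CCAAT box without a CHR, Kif20b held 2 adjoining CHR runs just after its start without a CCAAT box, and Kif18a held neither. These 5 genes thus had no combination of the motifs in common. Across the families, 83 of the 95 genes had a window. A CHR was found in 24 of the 83 windows (28.9%), against 18.1% of 27025 windows of all genes, and a CCAAT box in 43 (51.8%), against 37.9%. Both occurred together in 17 windows (20.5%), against 7.12% of all windows. The matches were uneven between roles: of 12 mitotic kinesins with a window, 9 held a CHR and 7 a CCAAT box, while of 11 transport kinesins with a window 0 held a CHR and 3 a CCAAT box. A match is a run of letters and no evidence of binding.

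**Figure D1:**
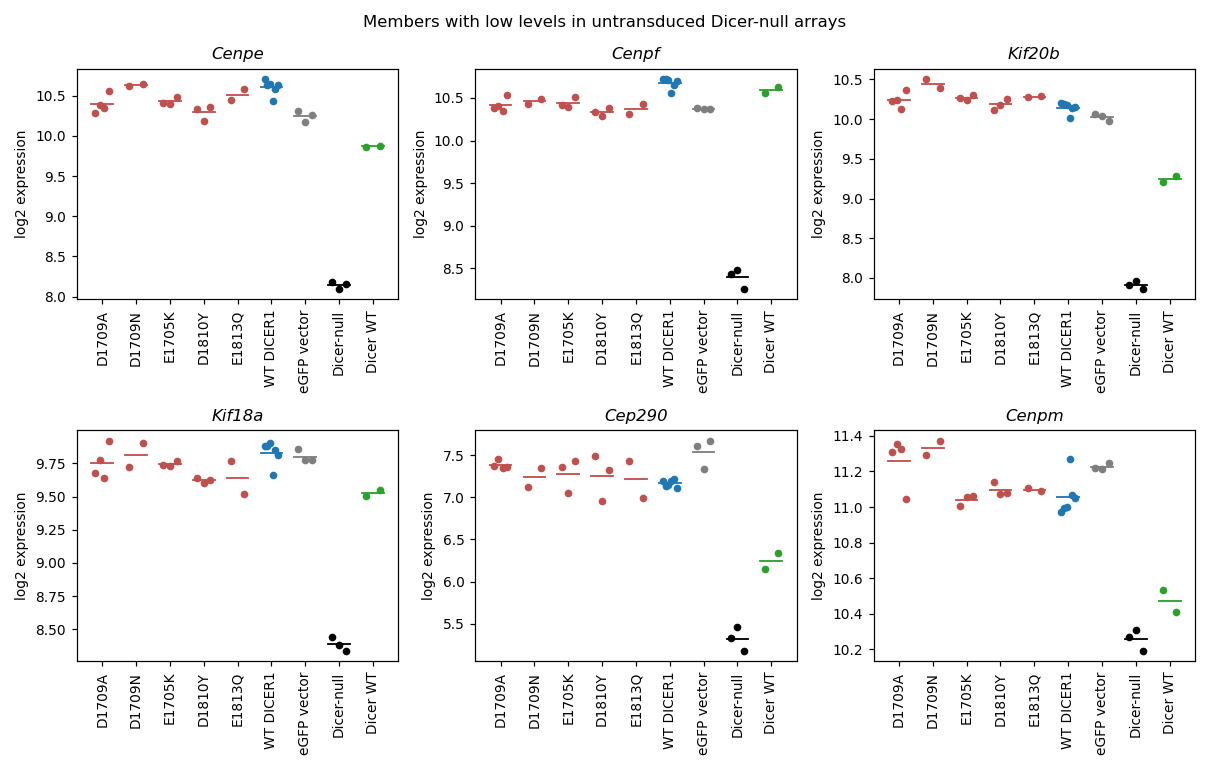
Log2 expression of 6 genes on each of the 28 arrays (points) in the 9 groups, with group means as horizontal bars. Each vertical axis has its own range. The 3 untransduced Dicer-null arrays lie below all other arrays for each of these genes, with Cenpe at 8.10 to 8.19 against 9.86 to 10.71 elsewhere.

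Of the 91 genes tested, 35 passed the threshold as higher and 12 as lower with eGFP vector than in Dicer-null cells, at an adjusted p under 0.05 by limma over all genes. Over all 13954 genes, 20.2% were higher and 27.4% lower, and since this contrast chose the families these counts are no evidence about them. When each array was centred on its median, the split was 30 higher and 18 lower among the members, and 2152 higher and 4896 lower, in place of 2822 and 3822, among all genes. The median change of the 91 genes was 0.09 log2 units, and that of all genes was -0.03.

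The kinesins are given by role. Among 12 mitotic kinesins the log2 difference between eGFP vector and Dicer-null cells had a median of 0.18 and ran from -0.08 to 2.11. Beyond Kif20b and Kif18a it was 0.26 for the microtubule depolymerase Kif2a, 0.22 for Kif2c (MCAK) and 0.22 for Kif20a, which works in cytokinesis. The bipolar spindle motor Kif11 differed by 0.18 and the centralspindlin motor Kif23 by 0.08. Among 15 kinesins of vesicle, axonal or intraflagellar transport the median was -0.21, with a range from -0.46 to 0.82. Kif1a, a carrier of synaptic vesicle precursors, differed by 0.82, and the conventional kinesin heavy chain Kif5b by 0.51. Kif3c differed by -0.46, Kif5a by -0.43, Kif21a by -0.40 and Kif21b by -0.34. Kif3a, the motor of intraflagellar transport, differed by 0.02, and by -0.04 after centring of arrays.

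The 20 centromere protein genes had a median difference of 0.18, with a range from -0.13 to 2.10, and the 14 CCAN subunits among them one of 0.25, with a range from -0.10 to 0.97. Cenpm had 11.22, 11.21 and 11.25 with eGFP vector, against 10.27, 10.31 and 10.19 in Dicer-null cells, and Cenpk differed by 0.91, Cenpq by 0.70 and Cenph by 0.44. The centromeric histone Cenpa differed by 0.03, and by -0.03 after centring of arrays. The centriolar protein Cenpj differed by 0.18.

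The 37 centrosomal protein genes had a median difference of 0.10, with a range from -0.51 to 2.22. Cep112 had 6.84, 6.77 and 6.84 with eGFP vector, against 6.04, 6.04 and 5.79 in Dicer-null cells. Cep126 differed by 0.74 and Cep295, needed for centriole-to-centrosome conversion, by 0.59. Cep152, a scaffold for the duplication kinase Plk4, differed by 0.31, and Cep192, a scaffold for mitotic centrosomes, by 0.13. Below 0 lay Cep170b (-0.51), Cep120 (-0.27) and Cep68 (-0.17), among others. Cep170b had 9.41, 9.34 and 9.48 with eGFP vector, against 9.92, 10.01 and 9.85 in Dicer-null cells.

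Other genes of cell division, listed with earlier results of these data known, are described in the same way for this contrast. The list of 15 outer kinetochore genes, which also holds the centromere licensing factors Mis18a and Oip5, had a median difference of 0.15. In it Knl1, the scaffold that recruits checkpoint proteins, stood at 1.465. The 23 checkpoint and mitotic control genes had a median of 0.12, with the checkpoint kinase Ttk at 0.60. The 20 DNA replication genes had a median of 0.10, with cyclin E2 (Ccne2) at 0.90. The 25 centrosome genes not named Cep had a median of 0.03, with Pcm1 at 1.13, and the 15 spindle and cytokinesis genes one of -0.03, with the microtubule polymerase Ckap5 at 0.66. The 7 related genes under other symbols (Cenpc1, Kifc2, Kifc3, Kifap3, Klc1, Klc3 and Klc4) had a median of -0.07, with the CCAN subunit Cenpc1 at 0.32. The 8 ES cell markers had a median of -0.11, with Klf4 at -0.63 and Sox2 at -0.55, and their summed level was 15.54 to 15.59 with eGFP vector, against 15.66 to 15.69 in Dicer-null cells. The 4 neural markers had a median of 0.20, with Neurod1 at 0.64, Pax6 at 0.58 and Nes at -0.49. Among the trophoblast markers Eomes stood at -0.57, Gata3 at -0.23, Hand1 at -0.06 and Cdx2 at 0.04. Elf5, whose mean over all arrays lay below the filter level, went the other way, with 7.08 with eGFP vector against 6.32 in Dicer-null cells. The part of the markers in the results on the families was not tested.

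**Figure D2:**
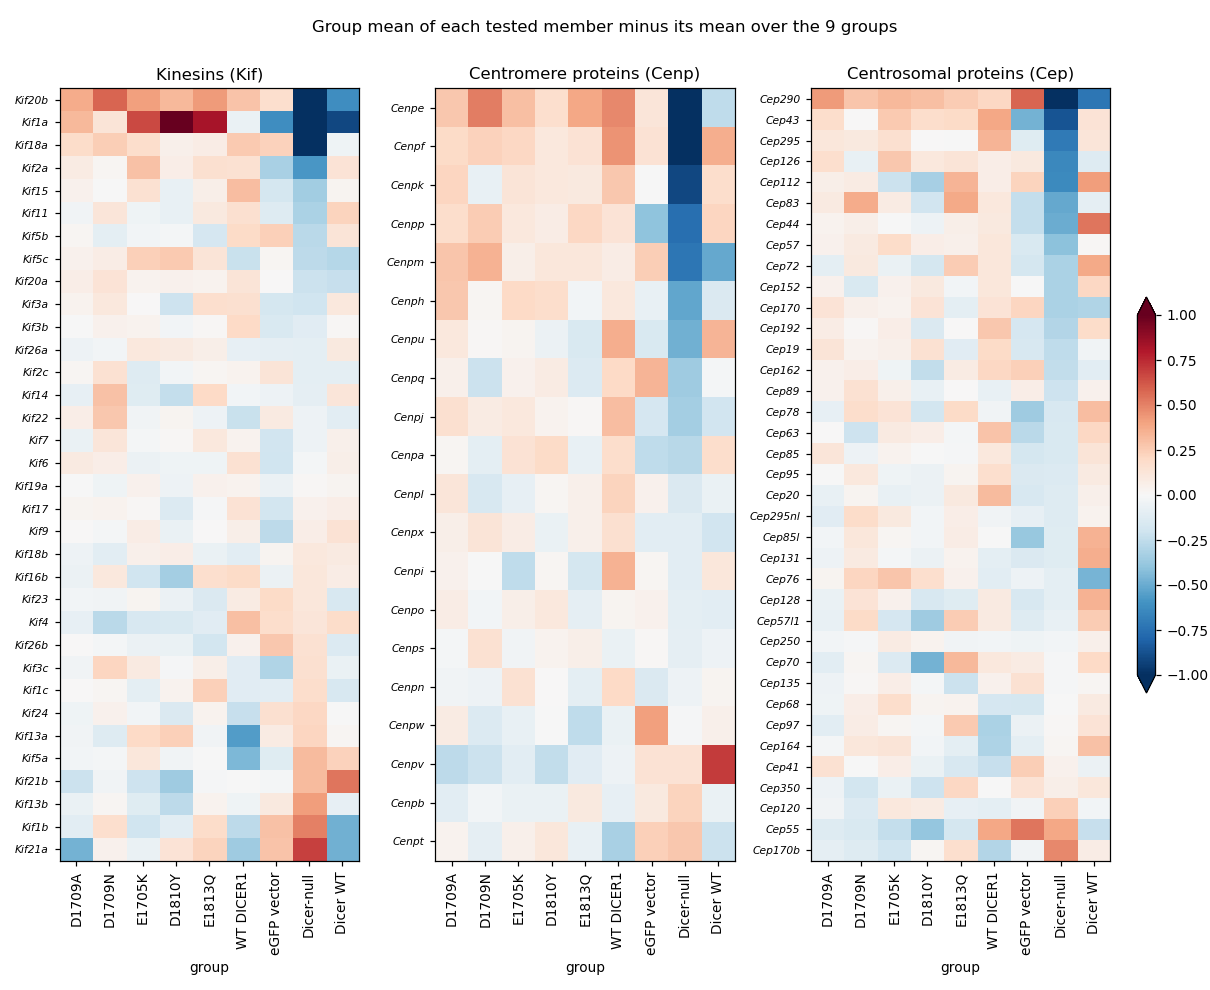
Mean log2 level of each of the 91 tested genes in each of the 9 groups (columns), as the difference from that gene's mean over the 9 groups, by family and ordered by the value in Dicer-null cells. Red is higher and blue lower, and the scale ends at -1 and 1. The Dicer-null column is blue for the genes at the top of each panel, where it goes beyond the end of the scale for Kif20b, Kif1a, Kif18a, Cenpe, Cenpf and Cep290.

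The Dicer-null arrays also lay below the arrays of the other 7 groups for many of these genes. For 26 of the 91 genes (28.6%) every Dicer-null array lay below every other array of the series, a pattern found in 9.74% of all genes. These comprised 5 mitotic kinesins (Kif11, Kif15, Kif18a, Kif20b and Kif2a), the transport kinesin Kif1a, 6 CCAN subunits (Cenph, Cenpk, Cenpm, Cenpp, Cenpq and Cenpu), Cenpe, Cenpf and 12 centrosomal protein genes. Among those 12, Cep290, Cep83 and Cep89 serve the cilium and Cep152, Cep192 and Cep57 the centriole or the material around it. The opposite pattern, with every Dicer-null array above every other, was found in 5 genes (5.49%), namely Cep120, Cep170b, Kif13b, Kif1b and Kif21a, against 13.8% of all genes. The arrays that chose the families enter both counts, so neither is independent of that choice.

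The 2 kinds of untransduced cells were compared next. Relative to Dicer wild-type cells, 13 of 91 genes were higher and 40 lower in Dicer-null cells by limma, against 30.7% higher and 27.2% lower over all genes. With arrays centred on their medians the members split into 18 higher and 34 lower, and all genes into 5232 and 2893 in place of 4282 and 3792. This comparison shares its Dicer-null arrays with the contrast above. The median change of the 91 genes was -0.18 log2 units, and that of all genes 0.01.

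The genes with the largest falls were mostly those described above. Cenpf had 8.44, 8.48 and 8.26 in Dicer-null cells, against 10.56 and 10.62 in Dicer wild-type cells, a difference of -2.20 ± 0.06 (limma adjusted p = 2.17e-19). Cenpe had 8.19, 8.10 and 8.16 in Dicer-null cells, against 9.86 and 9.88 in Dicer wild-type cells, and Kif20b had 7.92, 7.97 and 7.87 against 9.21 and 9.28. No Dicer-null array of these 3 genes overlapped with the Dicer wild-type arrays. How many of all genes show no overlap in this comparison was not counted. Kif18a fell by 1.14, and Cep290 differed by -0.92, with both Dicer-null and Dicer wild-type means (5.32 and 6.24) under the filter level.

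By family, the centromere protein genes gave 2 higher and 11 lower of 20, the centrosomal protein genes 4 higher and 21 lower of 37, and the kinesins 7 higher and 8 lower of 34. Over all genes 30.7% were higher and 27.2% lower. Cep43, a centriole and cilium protein also called FOP, had 8.41, 8.28 and 8.29 in Dicer-null cells, against 9.33 and 9.33 in Dicer wild-type cells. Cenpp had 8.13, 8.22 and 8.13 in Dicer-null cells, against 9.11 and 9.16 in Dicer wild-type cells. Kif2a had 9.82, 9.78 and 9.79 in Dicer-null cells, against 10.49 and 10.54 in Dicer wild-type cells. In each of these 3 the groups did not overlap, which was not counted over all genes, and the adjusted p-values by limma were 9.33e-15, 1.6e-11 and 1.47e-12. Cep112 (-1.05), Cep44 (-1.03), Cenpk (-1.09) and Cenpa (-0.45) fell too. Cenpv (-0.55), Kif11 (-0.54), Kif1a (-0.53), Cep152 (-0.52), Cep192 (-0.48) and Kif5b (-0.40) also fell. Kif2c (0.01) and Kif20a (0.02) did not pass the threshold.

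Rises in Dicer-null cells were led by transport kinesins. Kif21a, a motor that stabilises microtubules at the cell cortex, had 8.70, 8.74 and 8.63 in Dicer-null cells, against 7.49 and 7.56 in Dicer wild-type cells, a change of 1.16 ± 0.13 (limma adjusted p = 2.29e-08). Kif1b, which moves mitochondria and vesicles, had 9.72, 9.83 and 9.66 in Dicer-null cells, against 8.76 and 8.73 in Dicer wild-type cells, a change of 0.99. Cep55 had 11.31, 11.33 and 11.34 in Dicer-null cells, against 10.68 and 10.73 in Dicer wild-type cells, a change of 0.62. The CCAN subunit Cenpt, a direct link to the outer kinetochore, rose by 0.48, with 11.15, 11.19 and 11.15 in Dicer-null cells against 10.68 and 10.68 in Dicer wild-type cells. Kif13b rose by 0.50, Kif1c by 0.33, Cep76 by 0.36, Kif23 by 0.27 and the satellite-DNA-binding protein Cenpb by 0.29, but Kif1c lost its call with the mean of its probe sets and Cenpb without Dicer wild-type array 2.

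By role, CCAN subunits gave 1 higher and 7 lower of 14 in Dicer-null cells, mitotic kinesins 1 higher and 5 lower of 12, transport kinesins 5 higher and 3 lower of 15, and cilium genes 0 higher and 5 lower of 7. The shares over all genes, for these counts and the next, were 30.7% higher and 27.2% lower. Among other cell division genes, outer kinetochore genes gave 5 higher and 6 lower of 15, checkpoint and mitotic control genes 5 and 12 of 23, centrosome genes not named Cep 5 and 13 of 25, spindle and cytokinesis genes 3 and 7 of 15, and DNA replication genes 4 and 9 of 20. The largest difference within each of these lists was that of the securin Pttg1 (-1.42), Knl1 (-1.12), the polymerase subunit Pola1 (-0.91), Pcm1 (-0.87) and Aspm (-0.62). Neural markers gave 3 higher and 0 lower of 4, with Neurod1 at 2.10 and a summed level of 10.01 to 10.15 in Dicer-null cells against 9.01 to 9.20 in Dicer wild-type cells. Markers of other cell types differed too. Among trophoblast markers Eomes stood at -1.45 and Hand1 at 0.38, and among endoderm markers Sox7 at -0.79 and Gata4 at 0.40. Pdgfrb stood at -0.45 among fibroblast markers. Among ES cell markers Klf4 stood at -0.64, Zfp42 at -0.48, Pou5f1 at 0.24 and Dppa5a at 0.19. The part of all these markers in the values of the families was not tested.

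Wild-type DICER1 was then compared with the eGFP vector, both in Dicer-/- cells. Of the 91 genes, 40 rose and 21 fell, against 30.8% and 28.7% over all genes, with a median change of 0.05 against 0.02. The arrays of the eGFP vector took part in the contrast that chose the families. Centromere protein genes gave 11 higher and 4 lower of 20, centrosomal protein genes 16 and 8 of 37, and kinesins 13 and 9 of 34.

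The genes that stood furthest below other groups in Dicer-null cells had smaller differences here. Cenpe rose by 0.36 ± 0.06 (limma adjusted p = 1.83e-05) and Cenpf by 0.30 ± 0.05 (2.65e-05), while Kif20b differed by 0.11 (adjusted p = 0.0619) and Kif18a by 0.03 (0.725). Cep290 fell by 0.37 ± 0.12, with a lowest, median and highest value of 7.12, 7.17 and 7.22 with wild-type DICER1, against 7.61, 7.34 and 7.67 with eGFP vector. The larger rises were in other members. Cep43 had 9.51, 9.58 and 9.60 (lowest, median and highest) with wild-type DICER1, against 8.76, 8.68 and 8.73 with eGFP vector, a rise of 0.85 ± 0.04 (9.65e-15). Cenpp rose by 0.54, Kif1a by 0.55, the centriole protein Cep63 by 0.55, Cenpu by 0.52, the spindle motor Kif15 by 0.49, Kif2a by 0.48, Cenpj by 0.47, Cep20 by 0.47, Cep295 by 0.46, Cenpa by 0.42, the CCAN subunit Cenpn by 0.35 and the intraflagellar motor Kif3b by 0.35.

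The falls were led by Kif13a (-0.64), a carrier of recycling endosomes, and by Kif21a. Kif21a had 7.33, 7.69 and 7.82 (lowest, median and highest) with wild-type DICER1, against 8.38, 8.13 and 8.35 with eGFP vector, a change of -0.64 ± 0.11 (limma adjusted p = 1.56e-05). Cenpt had 10.50, 10.55 and 10.68 with wild-type DICER1, against 11.11, 11.19 and 11.11 with eGFP vector (-0.57 ± 0.04, adjusted p = 3.22e-11). Kif1b had 8.71, 9.02 and 9.08 with wild-type DICER1, against 9.59, 9.40 and 9.57 with eGFP vector (-0.55 ± 0.08). The groups did not overlap for any of these last 3 genes. The share of all genes without overlap in this comparison was not counted. Cep41, a tubulin glutamylation factor of cilia, fell by 0.48, Cenpw by 0.48, Kif24 by 0.39, Cep97 by 0.26, Cep170b by 0.26 and Cenpv by 0.19. Cenpm fell by 0.17, a call lost under 6 alternatives.

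By role, CCAN subunits gave 7 higher and 3 lower of 14, mitotic kinesins 4 and 3 of 12, transport kinesins 6 and 5 of 15, cilium genes 1 and 4 of 7, and the centrosomal proteins without a listed role 12 and 2 of 19. The shares over all genes, for these counts and the next, were 30.8% higher and 28.7% lower. Outer kinetochore genes gave 9 higher and 4 lower of 15, checkpoint and mitotic control genes 10 and 4 of 23, DNA replication genes 10 and 6 of 20, spindle and cytokinesis genes 5 and 6 of 15, and centrosome genes not named Cep 11 and 7 of 25. Pttg1 rose by 1.02, the centromere licensing factor Mis18a by 0.67, the centriole protein Ofd1 by 0.62 and the helicase subunit Mcm6 by 0.42, while the checkpoint target Cdc20 fell by 0.68. Fibroblast markers gave 3 higher and 0 lower of 5 tested, led by Pdgfrb at 1.30, with a summed level of 10.17 to 10.45 with wild-type DICER1 against 9.67 to 9.94 with eGFP vector. Among those measured but not tested, Postn averaged 7.21 with wild-type DICER1 against 4.81 with eGFP vector, and Lum 4.08 against 4.10. The 4 tested trophoblast markers were higher, led by Eomes (1.33) and Gata3 (1.17), while the fifth, Elf5, which was not tested, averaged 6.37 with wild-type DICER1 against 7.08 with eGFP vector. The summed level of all 5 was 10.12 to 10.41 with wild-type DICER1 against 9.44 to 9.57 with eGFP vector. The endoderm markers Gata6 (1.15) and Sox7 (0.42) were higher, 2 of 4 tested, with a summed level of 9.87 to 10.15 with wild-type DICER1 against 9.56 to 9.67 with eGFP vector. The neural markers Pax6 (-0.97) and Neurod1 (-0.87) were lower, 2 of 4, with a summed level of 9.75 to 10.01 with wild-type DICER1 against 10.25 to 10.35 with eGFP vector. The part of these markers in the values of the families was not tested.

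Dicer-null against Dicer wild-type cells and wild-type DICER1 against eGFP vector have no array in common, but the Dicer-null arrays of one and the eGFP vector arrays of the other both belong to the contrast that chose the families. The shares below are thus not independent of that choice. Of the 91 genes, 27 (29.7%) were lower in Dicer-null than in Dicer wild-type cells and also higher with wild-type DICER1 than with eGFP vector, against 16.6% of all genes. Among them were Cenpa, Cenpe, Cenpf, Cenph, Cenpi, Cenpk, Cenpp, Cenpu, Cep43, Cep192, Cep295, Kif11, Kif15, Kif1a and Kif2a. The reverse combination was found in 7 genes (7.69%), namely Cenpt, Cep170b, Cep55, Kif1b, Kif21a, Kif23 and Kif24, against 18.9% of all genes, and nothing is read from these differences.

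**Figure D3:**
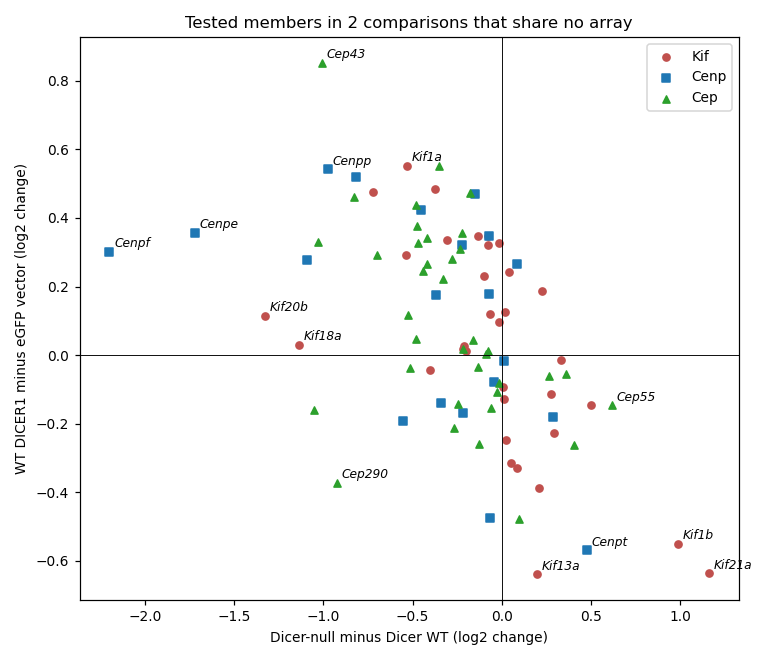
Log2 change of each of the 91 tested genes between Dicer-null and Dicer wild-type cells (horizontal axis) and between wild-type DICER1 and eGFP vector (vertical axis), with 1 point per gene and a symbol per family. Cep43 lies at -1.01 and 0.85 and Kif21a at 1.16 and -0.64, while Kif20b and Kif18a lie far to the left but near 0 on the vertical axis.

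The mean of the 5 mutant groups was set against the eGFP vector in the same way. Of the 91 genes, 31 were higher and 20 lower, against 29.3% and 23.8% over all genes. The number lower was 13 without eGFP vector array 1, for which the share of all genes is not given. Kinesins gave 11 higher and 9 lower of 34, centromere protein genes 7 and 4 of 20, and centrosomal protein genes 13 and 7 of 37. The median change of the 91 genes was 0.10 and that of all genes 0.02. Kif1a had a lowest, median and highest value of 8.25, 8.84 and 9.37 over the 14 mutant arrays, against 7.63, 7.45 and 7.69 with eGFP vector, a rise of 1.22 ± 0.09 (limma adjusted p = 2.47e-11). Cep43 had 9.20, 9.38 and 9.50 in mutant arrays, against 8.76, 8.68 and 8.73 with eGFP vector, and Cenpp had 8.90, 9.09 and 9.20 against 8.67, 8.40 and 8.46. Kif2a rose by 0.45, with 10.36, 10.48 and 10.71 in mutant arrays against 10.08, 9.999 and 10.08 with eGFP vector. In none of these 4 genes did the groups overlap, and the share of all genes without overlap was not counted. Cep78, Cep85l and Cep83, a distal appendage protein needed for cilia, rose by 0.41, 0.41 and 0.38, Kif3c by 0.36, Cenpa by 0.29, Kif9 by 0.26, Cenpj by 0.24 and Cenpe by 0.21. Cep55 fell by 0.75 ± 0.03 (6.41e-17), Cenpw by 0.49, Cenpq by 0.38, Kif26b by 0.34, Kif4 by 0.33, Cenpv by 0.33, Kif1b by 0.30, Cep162 by 0.26, Cep112 by 0.24 and Cenpt by 0.23. Kif21a fell by 0.31, a call lost without eGFP vector array 1 or 3, and Cep290 by 0.26, a call lost under 8 alternatives. Cenpf (0.03) and Cep152 (0.01) were near 0 and turned sign after centring of arrays. The calls of Cenpe, Cenpj, Cep83 and Kif26b were each lost under 1 alternative and that of Cep85l under 2. Markers of other cell types moved here too: 4 of 4 tested trophoblast markers were higher (Hand1 0.82, Gata3 0.81, Cdx2 0.76 and Eomes 0.49), with a summed level of the 5 measured of 9.71 to 10.48 in mutant arrays against 9.44 to 9.57 with eGFP vector. The trophoblast marker Elf5, which was not tested, went the other way, with mutant group means from 6.02 to 6.35 against 7.08 with eGFP vector. Pdgfrb (0.98) and Col1a1 (0.32) were higher among 5 fibroblast markers, Gata6 (0.33) among 4 endoderm markers, and of 4 neural markers Neurod1 was higher (0.51) and Pax6 lower (-1.04). The fibroblast marker Postn, which was not tested, had mutant group means from 5.00 to 6.35, against 4.81 with eGFP vector. Lum, also not tested, had 3.96 to 4.14, against 4.10. The part of all these markers in the values of the families was not tested.

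Mutant and wild-type DICER1 were compared in arrays that had no part in choosing the families. Of the 91 genes, 23 were higher and 37 lower with mutant DICER1, against 32.3% higher and 27.7% lower over all genes. The median change of the 91 genes was -0.06 and that of all genes 0.01. With only the PGKnvA arrays of both sides, 20 were lower. The share of all genes under that setting is not given, so nothing is read from the smaller count. Centromere protein genes gave 3 higher and 12 lower of 20, centrosomal protein genes 8 and 13 of 37, and kinesins 12 and 12 of 34.

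Cep55, which recruits the membrane scission machinery to the midbody, had the largest fall of the 91 genes. It had 10.53, 10.74 and 10.83 (lowest, median and highest) in the 14 mutant arrays, against 11.31, 11.32 and 11.36 in the 6 wild-type DICER1 arrays. No mutant array came near the wild-type DICER1 arrays, and the difference was -0.60 ± 0.02 (limma adjusted p = 3.61e-18). For comparison, Cep55 had 11.49, 11.50 and 11.43 with eGFP vector, 11.31, 11.33 and 11.34 in Dicer-null cells and 10.68 and 10.73 in Dicer wild-type cells. The Cep55 promoter window is shown because this gene separates these groups without overlap, and its single capital run is the reverse complement of the CHR letters.
Cep55 (chr19:38054734-38055033, plus strand): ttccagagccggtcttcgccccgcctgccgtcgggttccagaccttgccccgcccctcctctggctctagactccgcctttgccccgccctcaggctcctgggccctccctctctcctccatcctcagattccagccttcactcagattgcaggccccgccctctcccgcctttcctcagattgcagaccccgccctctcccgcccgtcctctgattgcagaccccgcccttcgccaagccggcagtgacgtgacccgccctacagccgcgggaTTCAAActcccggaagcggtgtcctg

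The chromokinesin Kif4, which acts with the central spindle, fell by 0.45 ± 0.04 (limma adjusted p = 1.2e-10). The CCAN subunits Cenpi and Cenpu fell by 0.42 and 0.38, Cenpf by 0.27, Cep20 by 0.33, Cep63 by 0.30, Kif15 by 0.27, Kif16b by 0.25, Kif5b by 0.25 and Cenpq by 0.24. The centromeric histone Cenpa fell by 0.14, Cenpe by 0.15, Cenpj by 0.23, Cep192 by 0.27 and Kif11 by 0.15. The changes of Kif2c (-0.03), Kif3a (-0.14), Cep152 (-0.11) and Cep290 (0.11) did not pass the threshold.

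Among 15 transport kinesins 8 rose and 5 fell with mutant DICER1, and among 12 mitotic kinesins 2 rose and 6 fell. Over all genes 32.3% rose and 27.7% fell. Kif1a, given above for the mutants, had 8.04, 8.09 and 8.42 (lowest, median and highest) with wild-type DICER1, a rise of 0.67 ± 0.06 (limma adjusted p = 9.25e-10). Kif13a rose by 0.61 ± 0.06 (2.46e-09), and the neuronal kinesin-1 heavy chains Kif5a and Kif5c by 0.45 and 0.38. Cep97, which restrains cilium growth, rose by 0.37, the appendage protein Cep164 by 0.33 and Cep76 by 0.25, while the rises of Cenpm (0.11, lost under 8 alternatives) and Cenps (0.11, lost under 2) were small. Cenpt had 10.79, 10.93 and 11.03 in mutant arrays, against 10.50, 10.55 and 10.68 with wild-type DICER1, with no overlap (0.33 ± 0.03). Cep170b had 9.23, 9.37 and 9.62 against 9.12, 9.14 and 9.21, also with no overlap (0.25 ± 0.03). Kif22 rose by 0.28, Kif21a by 0.33 and Kif1b by 0.25, but for the last 2 genes the arrays of both groups overlapped: 7.30, 8.01 and 8.32 in mutant arrays against 7.33, 7.69 and 7.82 with wild-type DICER1 for Kif21a, and 8.996, 9.12 and 9.48 against 8.71, 9.02 and 9.08 for Kif1b. Neural markers stood beside these kinesins with 1 of 4 higher and 0 lower, the higher one being Neurod1 at 1.38, and a summed level of 9.94 to 10.67 in mutant arrays against 9.75 to 10.01 with wild-type DICER1. The ES cell markers gave 1 higher and 7 lower of 8, with a summed level of 15.36 to 15.58 in mutant arrays against 15.51 to 15.63 with wild-type DICER1. Other lineage markers moved in both directions. Eomes (-0.85) and Gata3 (-0.36) fell and Hand1 (0.40) and Cdx2 (0.29) rose among 4 trophoblast markers, Gata6 (-0.82) and Gata4 (-0.17) fell among 4 endoderm markers, and Pdgfrb (-0.32) and Col1a1 (-0.20) fell among 5 fibroblast markers. Of the fibroblast markers not tested, Postn had mutant group means from 5.00 to 6.35, against 7.21 with wild-type DICER1, and Lum 3.96 to 4.14, against 4.08. The part of any of these markers in the values of the families was not tested.

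Among other cell division genes, outer kinetochore genes gave 2 higher and 10 lower of 15 with mutant DICER1, checkpoint and mitotic control genes 7 and 11 of 23, DNA replication genes 4 and 12 of 20, spindle and cytokinesis genes 3 and 9 of 15, and centrosome genes not named Cep 8 and 10 of 25. The shares over all genes were 32.3% higher and 27.7% lower. Examples with large differences were Ska2 (-0.66), a subunit that couples kinetochores to microtubules, Pttg1 (-0.65), Ccne2 (-0.49), Mis12 (-0.46), Cdc20 (0.46) and Ofd1 (-0.42).

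Over single arrays, 8 of 91 genes (8.79%) had every mutant array above every wild-type DICER1 array, against 8.97% of all genes: Cenpt, Cep164, Cep170b, Cep76, Cep97, Kif22, Kif5a and Kif5c. In 9 genes (9.89%) every mutant array lay below, against 8.05% of all genes: Cenpf, Cenpu, Cep20, Cep295, Cep43, Cep55, Cep63, Kif4 and Kif5b. Both shares were close to those of all genes. Within each vector the members with the largest differences had the same sign: Cep55 differed by -0.64 among ENvA and -0.55 among PGKnvA arrays, Kif4 by -0.43 and -0.49, Cenpi by -0.41 and -0.43, Kif1a by 0.76 and 0.54, and Kif13a by 0.69 and 0.48. Other falls were far smaller among one set. Kif16b differed by -0.39 among ENvA and -0.05 among PGKnvA arrays, Cenpe by -0.23 and -0.03, and Kif11 by -0.21 and -0.05, and these 3 calls were lost with PGKnvA arrays only. Cenpa differed by -0.05 among ENvA and -0.26 among PGKnvA arrays, a call lost without the PGKnvA arrays.

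**Figure D4:**
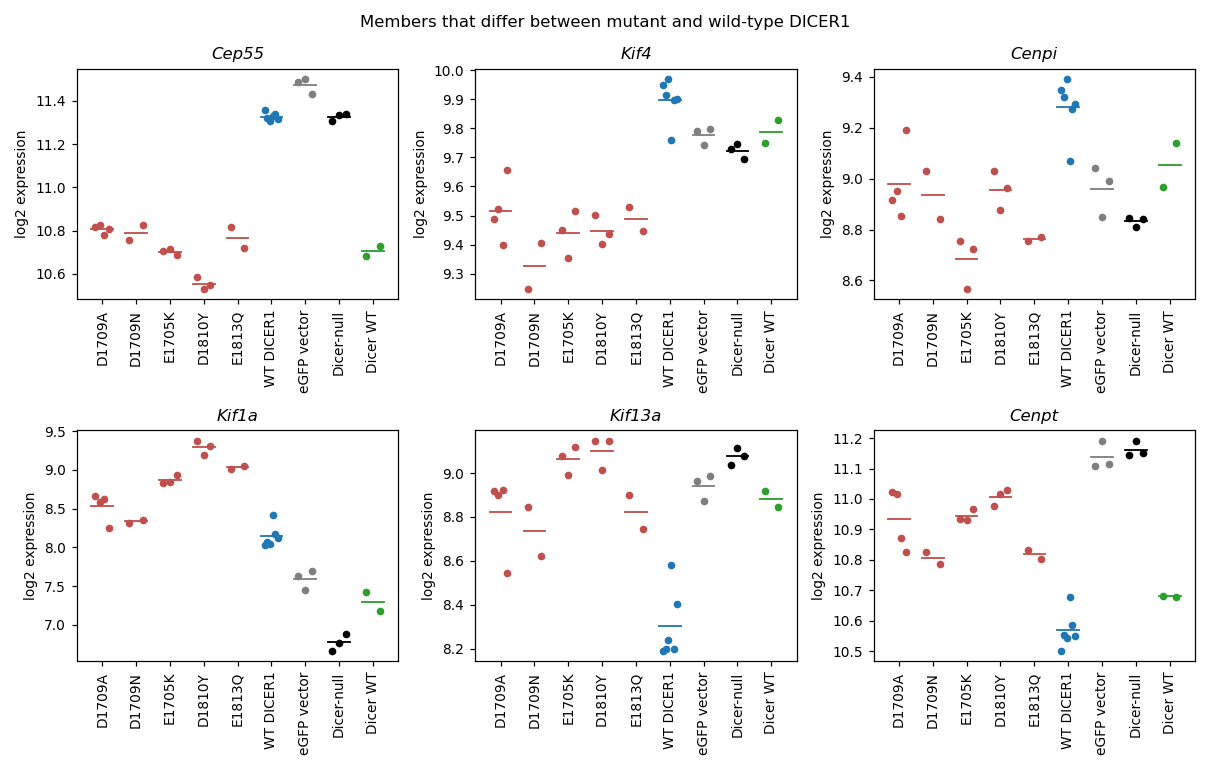
Log2 expression of 6 genes on each of the 28 arrays (points) in the 9 groups, with group means as bars. Each vertical axis has its own range. Cep55 lies at 10.53 to 10.83 in the 5 mutant groups, against 11.31 to 11.36 with wild-type DICER1, while Kif1a is highest in D1810Y, with values from 9.19 to 9.37.

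**Figure D5:**
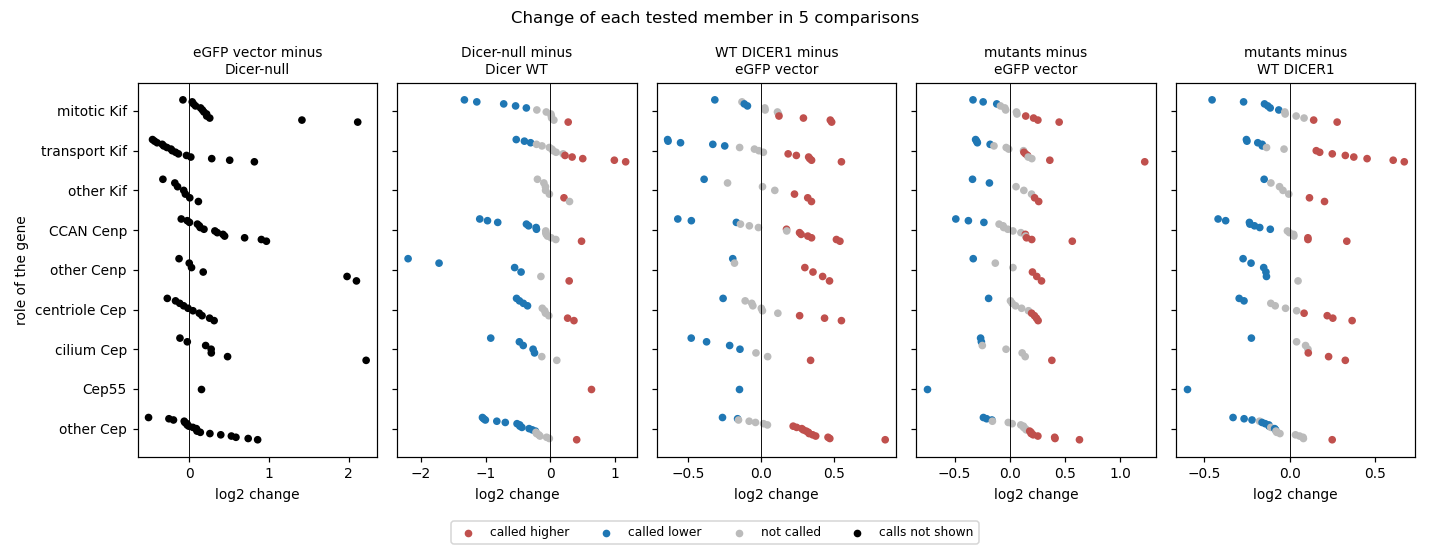
Log2 change of each tested gene (1 point per gene) in 5 comparisons, by role, with red for genes called higher, blue for genes called lower and grey for the rest, at an adjusted p under 0.05. The left panel, whose contrast chose the families, is in black with no calls. Each horizontal axis has its own range. In the right panel Cep55 lies at -0.60.

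Set singly against wild-type DICER1, the mutants differed in the number of members called. D1709A gave 15 higher and 25 lower (44% called, against 45.8% of all genes), with 19 and 20 after centring of arrays and 39 lower without the arrays numbered 4. D1709N gave 19 and 20 (42.9%, against 40.0%), and 12 and 12 without wild-type DICER1 array 5. E1705K gave 19 and 24 (47.3%, against 48.0%), with 14 lower without E1705K array 2. D1810Y gave 15 and 36 (56%, against 53.7%). E1813Q gave 15 and 18 (36.3%, against 40.6%), with 13 and 24 after centring. These shares with all arrays stayed near those of all genes. For the fits after centring or with arrays left out, shares of all genes are not given here, so nothing is read from those counts.

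Cep55 was among the members with the largest falls in each mutant, with -0.52 ± 0.03 in D1709A, -0.54 ± 0.04 in D1709N, -0.63 ± 0.03 in E1705K, -0.77 ± 0.03 in D1810Y and -0.56 ± 0.04 in E1813Q. These 5 comparisons share their wild-type DICER1 arrays. In D1709A, Kif13a rose by 0.52 and Kif5a by 0.42, and Cep20 fell by 0.39. In D1709N, the chromokinesin Kif22 rose by 0.49, Kif13a by 0.43 (a call lost without D1709N array 1 or wild-type DICER1 array 5) and Kif4 fell by 0.57, while Kif1a differed by 0.19 without passing the threshold. In E1705K, Kif13a rose by 0.76 and Kif1a by 0.73, and Cenpi fell by 0.60. In D1810Y, Kif1a had 9.37, 9.19 and 9.31, a rise of 1.15 ± 0.09 over wild-type DICER1 (limma adjusted p = 2.92e-10), Kif13a rose by 0.80 and Cep70 fell by 0.58. In E1813Q, Kif1a had 9.01 and 9.06, a rise of 0.89, Cep97 rose by 0.58 and Cenpi fell by 0.52.

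The array numbered 4 differed from the others in the comparison of D1709A with wild-type DICER1. The deviations of the arrays numbered 4 in the 2 groups summed to 0 within 0.000133, so they are not separate observations. Kif1a differed by 0.58 between D1709A and wild-type DICER1 in arrays 1 to 3, against -0.17 in array 4, Kif13a by 0.70 against -0.03, and Cenpi by -0.45 against 0.12. Cep20 differed by -0.50 in arrays 1 to 3 against -0.05 in array 4, Kif4 by -0.47 against -0.10 and Kif15 by -0.38 against 0.09. Cep192 differed by -0.37 against 0.33, Kif11 by -0.29 against 0.07 and Kif21a by -0.34 against 0.52. Kif5a was closer between the sets, with 0.45 against 0.33, and Cep55 differed by -0.52 in both sets.

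The mutant difference was set between the vectors as an interaction: the difference of the 2 PGKnvA mutants minus that of the 3 ENvA mutants. The wild-type DICER1 means of both vectors were equal within 7.5e-05 in the deposited values. The wild-type arms thus cancel in the estimate, which compares the PGKnvA mutants with the ENvA mutants alone. They still enter its SE and p-value, since the vector effect of the model is estimated from the wild-type DICER1 arrays. Of 91 genes, 4 were higher and 1 lower (5.49% called, against 18.0% of all genes), with 3 higher and 5 lower after centring of arrays. They were Cep57l1 (0.42 ± 0.08, limma adjusted p = 0.00156), Cep112 (0.37 ± 0.09), Kif16b (0.34 ± 0.08), Kif2c (0.13 ± 0.04) and Cenpa (-0.20 ± 0.05). Cep57l1 differed from wild-type DICER1 by 0.13 with the PGKnvA mutants, against -0.29 with the ENvA mutants, and Cep112 by 0.14 against -0.23, while Cenpa differed by -0.26 against -0.05. Different mutants carry the 2 vectors, so vector and mutation cannot be told apart in these values. The counts varied between 2 and 16 higher and between 1 and 10 lower when single arrays were left out, with 16 higher and 10 lower without wild-type DICER1 array 4 and 2 higher without wild-type DICER1 array 5. Shares of all genes in those fits are not given. The call of Cep112 was lost without wild-type DICER1 array 5. Cep112 had 6.96 and 6.90 in E1813Q and 6.65 and 6.70 in D1709N, against 6.22, 6.20 and 6.35 in D1810Y and 6.34, 6.38 and 6.40 in E1705K, the last 2 groups lying near or under the filter level.

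For 10 members more than one probe set carried the symbol alone, and the probe set used was not always matched by the others. In eGFP vector against Dicer-null cells, the used probe set of Kif26b gave 0.12 and the other gave -0.55, and Kif1c gave -0.28 and -0.93. The 3 probe sets of Cep192 gave 0.13, 0.22 and 0.19. In mutant against wild-type DICER1 those of Cep192 gave -0.27, -0.18 and -0.30.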

How the data were processed

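RNA of 28 mouse ES cell samples was measured on Affymetrix Mouse Gene ST arrays. The deposited values are log2 expression per probe set, made by the authors with RMA and Partek 6.6, per the submitters' processing notes; other settings are unstated in the sources used here. Groups follow the transgene and genotype labels. Of 35556 probe sets, 21789 had 1 symbol in the platform annotation, giving 19938 symbols, of which 13954 with a mean above the 30th percentile (6.42) were tested; all 95 members matched the GRCm38.p6 reference table. All arrays entered 1 limma 3.58.1 model (R 4.3.3) with the 9 group means plus a PGKnvA vector effect, moderated variances with a mean-variance trend (18 residual degrees of freedom), two-sided tests and Benjamini-Hochberg adjustment over all tested genes at 0.05. The script was tested on simulated data. The number of arrays limits precision.

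Members, gene lists and alternatives were chosen with earlier results of these data known. Named were, in each of 5 main comparisons and each family, up to 4 called members with the largest rise and 4 with the largest fall, the 2 largest each way for single mutants and the interaction, the 5 with the widest range of group means, the highest and lowest of each family (whose levels are not set against each other, since probe sets differ in response), and 14 fixed members. Values on every array are given for members named in 3 or more main comparisons. Alternatives changed the filter, probe set rule, scaling, normalization, variance trend, vector term, arrays fitted and replicate block. The same replicate number was not shown to pair arrays: over 88 same-number pairs the correlation of deviations ranged from -1 to 0.684, with a median of -0.019. The deposited values obey exact linear relations: 3 singular values were at most 0.00233 and the next was 24.2, the deviations of arrays 4 of D1709A and wild-type DICER1 summed to 0 within 0.000133, and wild-type DICER1 means of both vectors were equal within 7.5e-05. Figures used Python 3.11.15, numpy 2.4.6 and matplotlib 3.10.9.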

Additional observations from a re-analysis of the deposited data

Results flagged for a closer look

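In 136 tests (68 named members, each in D1709A and in wild-type DICER1), 19 flagged 1 array far from the rest of its group. In all 19 this was array 4. The deviations of arrays 4 of D1709A and wild-type DICER1 summed to 0 within 0.000133, so flags in the 2 groups are not separate observations. The value given is the gap to the nearest array as a share of the group's range. Chance flags about 1 group in 20 where arrays are independent, so the 19 flags cannot be set against that rate. In D1709A, array 4 was high for Cenpj (0.83), Cep83 (0.875), Cep97 (0.948) and Kif1b (0.9), and low for Cenpm (0.844) and Kif13a (0.94). In wild-type DICER1, array 4 was high for Cenpm (0.69) and Kif1a (0.653). It was low there for Cenpi (0.632), Cep192 (0.641), Cep43 (0.667), Cep57l1 (0.635), Cep83 (0.651), Kif13b (0.649), Kif18a (0.629), Kif1b (0.634), Kif20b (0.68), Kif21a (0.627) and Kif4 (0.654).

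By limma's test of the interaction, 3 named members differed between the PGKnvA and the ENvA mutants. The wild-type DICER1 means of both vectors were equal within 7.5e-05, so the wild-type arms cancel in the estimate, though not in its SE. PGKnvA minus ENvA gave 0.4218 for Cep57l1 (0.1309 with PGKnvA, -0.2909 with ENvA), 0.3747 for Cep112 (0.1445 and -0.2301) and -0.2041 for Cenpa (-0.2586 and -0.0545).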

How the results depend on the processing

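Counts of members called kept within 1.5 times their main value under most alternatives, with these exceptions. For the interaction of mutant and vector (main 4 higher, 1 lower), centring of arrays gave 5 lower, quantile normalization 9 higher and 2 lower, and dropping the vector term 28 higher and 17 lower. With the replicate block the interaction gave 23 higher and 13 lower; same-numbered arrays share only a number, and with the block 4 calls of named members were lost and 1 value changed sign. For mutant against wild-type DICER1, PGKnvA arrays only gave 20 lower (37 in all arrays), and for D1709A, leaving out arrays numbered 4 gave 39 lower (25); both settings were chosen after seeing the data. Leaving out single arrays gave 13 to 21 lower in mutants against eGFP vector, 12 to 21 higher and 12 to 21 lower in D1709N, 14 to 25 lower in E1705K, and 2 to 16 higher and 1 to 10 lower in the interaction. Shares of all genes under these alternatives are not given here. These counts thus cannot tell a change of the members from a change of all genes. Signs turned only for small values that did not pass the threshold: with centring Cenpa (-0.0292) and Kif3a (-0.0384) in eGFP vector against Dicer-null cells and Cenpf (-0.0042) and Cep152 (-0.0268) in mutants against eGFP vector; with quantile normalization Kif3a (-0.0139) in eGFP vector against Dicer-null cells, Kif2c (-0.0279) and Kif20a (-0.0051) in Dicer-null against Dicer wild-type cells, and Cep152 (-0.031) in mutants against eGFP vector; with the replicate block Cep152 (-0.0013); and with PGKnvA arrays only Kif2c (0.0515) in mutants against wild-type DICER1. Leaving out single arrays moved, in the same comparisons, Kif3a between -0.0107 and 0.0754, Kif2c between -0.0199 and 0.0336 and Cep152 between -0.0493 and 0.0867. The causes were not tested. The count of 35 higher in eGFP vector against Dicer-null cells, where 20.2% of all genes were higher, includes Kif23 (0.08), whose call was lost under 8 alternatives. Nothing is read from that count, since the contrast chose the families. Levels near or below the filter level, as for Cep290 and Cep112 in Dicer-null cells, limit the size of their changes.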
